A study of Mus musculus with 6 samples.

Results

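The 10 genes described here belong to the unfolded protein response and to the folding machinery of the endoplasmic reticulum (ER). They are Xbp1, Hspa5, Dnajb9, Herpud1, Sdf2l1, Creld2, Edem1, Pdia4, Hsp90b1 and Calr, chosen by name, and each stands on 1 row of an expression table of 23359 gene symbols. All 10 passed a filter of a mean of at least 1 FPKM, as did 9916 genes in all. FPKM scales the sequenced fragments of a gene to its transcript length and to the size of the library, so levels can be compared between genes. The samples are mouse bone marrow, 3 libraries in which Gab2 is disrupted (-/-, called NULL, with the letters A, B and C) and 3 with intact Gab2 (+/+, called WT, with the same letters). GAB2 is a scaffolding adaptor in cytokine receptor and BCR-ABL1 signalling, and the comparison asks which transcripts differ where its gene is disrupted. The sources used here do not give the strain, age or treatment of the mice, the allele, or whether the cells were fresh or cultured. The labels name no separate animals, and the spread that each p-value is based on may be technical.

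Secreted and membrane proteins fold in the ER with the help of chaperones, disulfide isomerases and lectins. When unfolded proteins build up there, the membrane sensors IRE1 (Ern1), PERK (Eif2ak3) and ATF6 start the unfolded protein response. It raises folding capacity and the degradation of misfolded proteins and lowers protein synthesis. IRE1 splices Xbp1 mRNA so that it encodes an active transcription factor, and in the B lineage Xbp1 is best known for building the secretory apparatus of plasma cells.

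Depth, estimated from what 1 fragment is worth in FPKM, ran from 17.9 to 68.6 M fragments a library (M, 1e+06). Gab2 read 0.123, 0.145 and 0.203 FPKM in NULL and 3.33, 3.10 and 2.43 FPKM in WT, as the labels imply. The share of small RNA genes in the summed FPKM varied, from 8.60% to 30.1% in NULL and from 6.00% to 31.4% in WT. The tissue label is bone marrow, but markers of several marrow cell types were scarce. The 10 granulocyte markers found summed to at most 0.272 FPKM in NULL and 0.186 FPKM in WT, with Elane, S100a8, S100a9 and Fcnb at 0 in all libraries. The 10 monocyte and macrophage markers summed to between 2.69 and 3.80 FPKM in NULL and between 0.841 and 0.943 FPKM in WT, with Cd14, C1qa, C1qb and C1qc at 0. The 9 T and NK cell markers summed to at most 0.541 FPKM in NULL and 0.255 FPKM in WT, with Cd4 at 0. The 9 erythroid markers, with Hba-a1 and Slc4a1 at 0, summed to between 159 and 184 FPKM in NULL and between 276 and 360 FPKM in WT. Most of that was Tfrc, the transferrin receptor, which other dividing cells express too. The globin gene Hbb-b1 read 0.00022, 0 and 0.000359 FPKM in NULL, against 8.31, 7.21 and 58.7 FPKM in WT. B-lineage markers summed to between 4391 and 4642 FPKM in NULL and between 2706 and 2996 FPKM in WT. Of 14 tested B-lineage markers 12 rose in limma's test, where 23.3% of all genes tested rose. The list of plasma cell markers includes Xbp1, Mzb1 and Derl3. It summed to between 239.6 and 255 FPKM in NULL and between 242 and 271 FPKM in WT. Most of that was Mzb1, Xbp1 and Irf4, with means of 119, 82.6 and 32.4 FPKM in NULL and 119.8, 80.5 and 34.1 FPKM in WT. Prdm1 averaged 0.0931 FPKM in NULL and 0.0430 FPKM in WT, and Tnfrsf17 0.00747 FPKM in NULL and 0 FPKM in WT. Of 7 tested plasma cell markers 1 rose (Derl3), 2 fell (Sdc1 and Slamf7) and 4 were not called. Of all genes tested 23.3% rose and 42.0% fell. With quantile normalization, described with the other scalings in what follows, 4 were higher and 2 lower, beside 28.5% and 33.1% of all genes tested. The surface marker Sdc1 fell to 1.53 ± 0.320 FPKM in NULL, against 5.42 ± 0.959 FPKM in WT (SD, n = 3 each). The part of cell type composition in the results that follow was not tested, and in bulk libraries fewer cells of a type and less RNA per cell cannot be told apart.

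The members did not all move the same way in NULL. The abundant lumenal chaperones Hspa5, Hsp90b1 and Calr fell to about the same share of their WT level, between 53.1% and 53.3%. Sdf2l1 fell further, to 42.4%. Creld2, Pdia4 and Edem1 were lower on the deposited scale, at 57.3%, 67.8% and 80.3% of WT. Herpud1 and Dnajb9 rose to 153% and 179% of WT, and Xbp1 stood at 103% and was not called. A call means a limma adjusted p under 0.05. Across the table limma called 42.0% of 9916 tested genes lower and 23.3% higher, and of the 10 members 7 were lower and 2 higher. Calls in either direction took 65.3% of all genes tested, so a call alone sets no member apart. The members' median log2 change was -0.66, beside -0.13 over all genes tested. FPKM depend on what else was sequenced, and each result was therefore also computed under 4 rescalings. These were median-of-ratios factors, quantile normalization, an equal sum of FPKM (a common total in the plots) and an equal sum without small RNA genes.

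Of the members 4 carry an exact ER stress element (ERSE) and 1 an ERSE-II in the 250 bases before the RefSeq transcript start. They were picked for display with their directions known, the ERSE genes having fallen and the ERSE-II gene risen. Other tested genes with a match did not all go that way. Of 10 others with ERSE 5 were lower and 3 higher, and of 6 others with ERSE-II 2 were lower and 0 higher. Of tested genes without ERSE 42.3% were lower and 23.5% higher, and of those without ERSE-II 42.4% and 23.5%. These genes are few, and whether genes with a match differ from the rest was not tested. ERSE is the sequence through which ATF6, with the factor NF-Y, and XBP1 act on ER chaperone promoters, and ERSE-II is a shorter variant known from the HERPUD1 promoter. The sequences are from RefSeq on GRCm38.p6, given 5′ to 3′ in the direction of the gene. Capitals mark each match to ERSE (CCAAT, any 9 bases, then CCACG) or to ERSE-II (ATTGG, any 1 base, then CCACG), which reads as the reverse complement where the match lies on the opposite strand.
Hspa5 (chr2:34771840-34772089, plus strand): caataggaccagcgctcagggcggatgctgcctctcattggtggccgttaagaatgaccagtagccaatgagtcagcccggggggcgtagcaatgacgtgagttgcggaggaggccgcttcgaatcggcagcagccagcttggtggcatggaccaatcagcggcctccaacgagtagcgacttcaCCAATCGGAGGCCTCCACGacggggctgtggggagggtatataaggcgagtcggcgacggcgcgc
Hsp90b1 (chr10:86705445-86705694, minus strand): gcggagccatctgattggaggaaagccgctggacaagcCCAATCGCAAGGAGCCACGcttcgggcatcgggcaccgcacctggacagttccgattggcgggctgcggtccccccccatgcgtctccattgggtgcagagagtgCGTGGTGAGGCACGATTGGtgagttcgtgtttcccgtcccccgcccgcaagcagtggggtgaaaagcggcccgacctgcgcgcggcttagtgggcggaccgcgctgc
Calr (chr8:84846932-84847181, minus strand): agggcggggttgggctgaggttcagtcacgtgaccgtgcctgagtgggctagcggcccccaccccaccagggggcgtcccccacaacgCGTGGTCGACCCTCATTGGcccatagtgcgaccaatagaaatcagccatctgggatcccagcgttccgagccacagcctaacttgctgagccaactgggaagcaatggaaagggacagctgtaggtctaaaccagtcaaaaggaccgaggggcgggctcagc
Creld2 (chr15:88819396-88819645, plus strand): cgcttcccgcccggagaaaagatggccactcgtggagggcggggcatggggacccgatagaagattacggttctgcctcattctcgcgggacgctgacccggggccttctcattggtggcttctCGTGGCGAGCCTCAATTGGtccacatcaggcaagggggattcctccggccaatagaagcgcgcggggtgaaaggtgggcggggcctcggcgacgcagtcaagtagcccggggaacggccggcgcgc
Herpud1 (chr8:94386179-94386428, plus strand): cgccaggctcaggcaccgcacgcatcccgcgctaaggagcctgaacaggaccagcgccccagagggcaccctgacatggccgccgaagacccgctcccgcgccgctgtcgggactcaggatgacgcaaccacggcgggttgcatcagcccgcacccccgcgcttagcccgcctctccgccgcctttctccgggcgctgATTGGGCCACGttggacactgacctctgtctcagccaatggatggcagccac

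The Hspa5 element starts 65 bases before the transcript start and lies on the strand of the gene. Hsp90b1 has an element on its own strand from 212 bases and another on the opposite strand from 107 bases before the start. Those of Calr and Creld2 lie on the opposite strand, from 162 and 126 bases, and the ERSE-II of Herpud1 starts 52 bases before the start. Among 32851 RefSeq windows of 300 bases (250 before to 50 after each start), searched on both strands, 39 (0.119%) hold ERSE and 12 (0.0365%) hold ERSE-II. The UPRE letters TGACGTGG, another site known for XBP1 and ATF6, stand in 0.676% of the windows and in those of none of the 10 members. Only these exact letters were searched, and the Hspa5 sequence above holds TGACGTGA, which differs in the last base. The windows of Sdf2l1, Pdia4, Edem1 and Dnajb9 hold the separate end motifs of ERSE, CCAAT and CCACG, which occur in 37.4% and 32.8% of all windows and also lie inside ERSE, and the Xbp1 window holds neither. A match describes these letters, not binding, and the members were chosen as response genes, so no test was made.

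**Figure D1:**
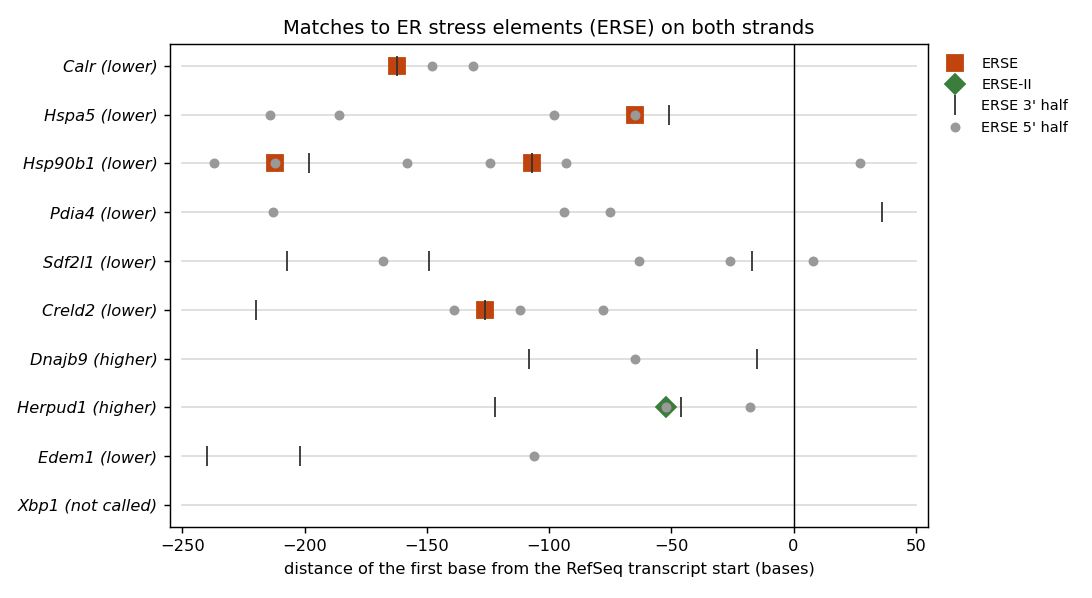
Position of ER stress element matches in the RefSeq promoter window of each gene, with the distance of the match's first base from the transcript start in bases on the horizontal axis and 1 gene per row. Squares are ERSE, diamonds ERSE-II, ticks and dots the end motifs of ERSE, and the words in brackets give the limma call in NULL on the deposited scale. Full ERSE matches stand in Calr, Hspa5, Hsp90b1 and Creld2, all called lower, and the ERSE-II match in Herpud1, called higher. Of 10 other tested genes with ERSE, not shown, 5 were lower and 3 higher, beside 42.3% and 23.5% of tested genes without ERSE.

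Hspa5 encodes BiP, the ER HSP70 that binds unfolded chains and holds the stress sensors inactive, and lies on chromosome 2 from 34771970 to 34777547 (GRCm38, GENCODE vM21, as for the genes that follow). It read 176, 159.7 and 186 FPKM in NULL, against 325, 336 and 318 FPKM in WT, in the order of the letters here and in what follows. Every NULL library was below every WT library, by far more than libraries of a group differed. The means were 174 ± 13.3 FPKM in NULL and 326 ± 8.99 FPKM in WT (SD, n = 3 each), with a log2 change of FPKM + 1 of -0.91 (SE 0.083, limma adjusted p = 7.22e-05). Only 8.53% of all genes tested had a lower change than Hspa5.

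Hsp90b1 encodes GRP94, the ER HSP90, whose clients include integrins and Toll-like receptors, and lies on chromosome 10 from 86690209 to 86705509, where the pseudogene 1810014B01Rik overlaps it on the opposite strand. It read 157, 154 and 165 FPKM in NULL, against 303, 309.7 and 285 FPKM in WT. The groups were again apart, with means of 159 ± 5.41 FPKM in NULL and 299 ± 12.7 FPKM in WT (SD, n = 3 each). The log2 change was -0.91 (SE 0.073, limma adjusted p = 4.72e-05). Calr, calreticulin, holds monoglucosylated glycoproteins during folding and stores ER calcium. The gene lies on chromosome 8 from 84841850 to 84846934, and a pseudogene, Calr-ps, is annotated, so any reads that both share are uncertain. Calr read 196, 158 and 193 FPKM in NULL, against 333, 351 and 346 FPKM in WT. NULL B was the lowest of the NULL libraries, and no NULL library came near the WT range. The log2 change was -0.92 (SE 0.0998, limma adjusted p = 0.000148).

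Pdia4 (ERp72), a protein disulfide isomerase that works in a complex with BiP and GRP94, lies on chromosome 6 from 47796141 to 47813430. It read 67.9, 61.7 and 68.4 FPKM in NULL, against 94.6, 95.6 and 102 FPKM in WT. The groups did not overlap, but the step was smaller than that of Hspa5, with a log2 change of -0.55 (SE 0.071, limma adjusted p = 0.000313). That call was lost after quantile normalization (log2 change -0.093, adjusted p = 0.212) and under both equal-sum rescalings (limma adjusted p = 0.463, and 0.0501 without small RNA genes), with the sign still negative.

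Sdf2l1, a stress-inducible partner of the BiP cochaperone DNAJB11, lies on chromosome 16 from 17130138 to 17132383. It read 21.9, 15.9 and 19.96 FPKM in NULL, against 44.2, 45.1 and 47.1 FPKM in WT. The highest NULL library stood well under the lowest WT library, and the spread within NULL, 16.1% of the mean, was the widest of the members in that group. The log2 change of -1.21 (SE 0.112, limma adjusted p = 7.58e-05) was the most negative of the 10, and 2.60% of all genes tested had a lower change. Creld2, an ER-resident and secreted protein with EGF-like repeats, is induced by ER stress and lies on chromosome 15 from 88819646 to 88826683. It read 15.5, 11.8 and 13.1 FPKM in NULL, against 23.7, 21.6 and 25.1 FPKM in WT. All NULL libraries were lower, and the log2 change was -0.76 (SE 0.104, limma adjusted p = 0.000424). The call was lost under equal-sum rescaling (log2 change -0.50, adjusted p = 0.131).

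Herpud1, an ER membrane protein that organises the ubiquitin ligase complex of ER-associated degradation, lies on chromosome 8 from 94386438 to 94395377. An antisense gene, Gm15890, overlaps it, and no source used here says whether the counting used strand, so reads of the pair cannot be told apart. Herpud1 read 90.5, 80.1 and 86.5 FPKM in NULL, against 54.2, 56.1 and 57.9 FPKM in WT. Each NULL library was above each WT library. The means were 85.7 ± 5.21 FPKM in NULL and 56.1 ± 1.81 FPKM in WT (SD, n = 3 each), with a log2 change of 0.60 (SE 0.070, limma adjusted p = 0.000203). Dnajb9 (ERdj4), a BiP cochaperone that also serves degradation and helps to switch off IRE1, lies on chromosome 12 from 44205559 to 44210326. It was the least abundant member and read 6.35, 8.00 and 8.22 FPKM in NULL, against 4.88, 4.22 and 3.49 FPKM in WT. The groups did not overlap, with NULL A the lowest NULL library and WT A the highest WT library. The log2 change was 0.71 (SE 0.126, limma adjusted p = 0.00158), and 92.3% of all genes tested had a lower change. Both genes stayed higher under all 4 rescalings of the libraries, Herpud1 by 0.76 to 1.05 and Dnajb9 by 0.73 to 1.03 on the log2 scale.

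Edem1, which delivers glycoproteins with trimmed mannose to degradation, lies on chromosome 6 from 108828641 to 108859356. It read 12.6, 11.8 and 13.3 FPKM in NULL, against 15.7, 15.6 and 15.5 FPKM in WT. The WT libraries were nearly identical, with a spread of 0.492% of the mean, and all NULL libraries lay below them. The log2 change was -0.30 (SE 0.064, limma adjusted p = 0.00435). Relative to the median of all genes the change was -0.17. Edem1 was called under none of the 4 rescalings, its log2 change lying between -0.15 and 0.060, so its direction depends on the scaling.

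Xbp1, the transcription factor of the IRE1 branch, lies on chromosome 11 from 5520659 to 5525893. It read 80.9, 81.1 and 85.9 FPKM in NULL, against 82.6, 78.4 and 80.6 FPKM in WT. The groups overlapped, and the means of 82.6 ± 2.84 FPKM in NULL and 80.5 ± 2.09 FPKM in WT (SD, n = 3 each) differed by less than the spread between libraries. The log2 change was 0.036, with a 95% interval from -0.11 to 0.18 (limma adjusted p = 0.634). Xbp1 was called higher after median-of-ratios rescaling (log2 change 0.19, adjusted p = 0.0265), quantile normalization (0.49, adjusted p = 0.000994) and equal-sum rescaling without small RNA genes (0.41, adjusted p = 0.00252), but not with them (0.31, adjusted p = 0.392). Gene-level FPKM do not separate spliced from unspliced Xbp1 mRNA.

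**Figure D2:**
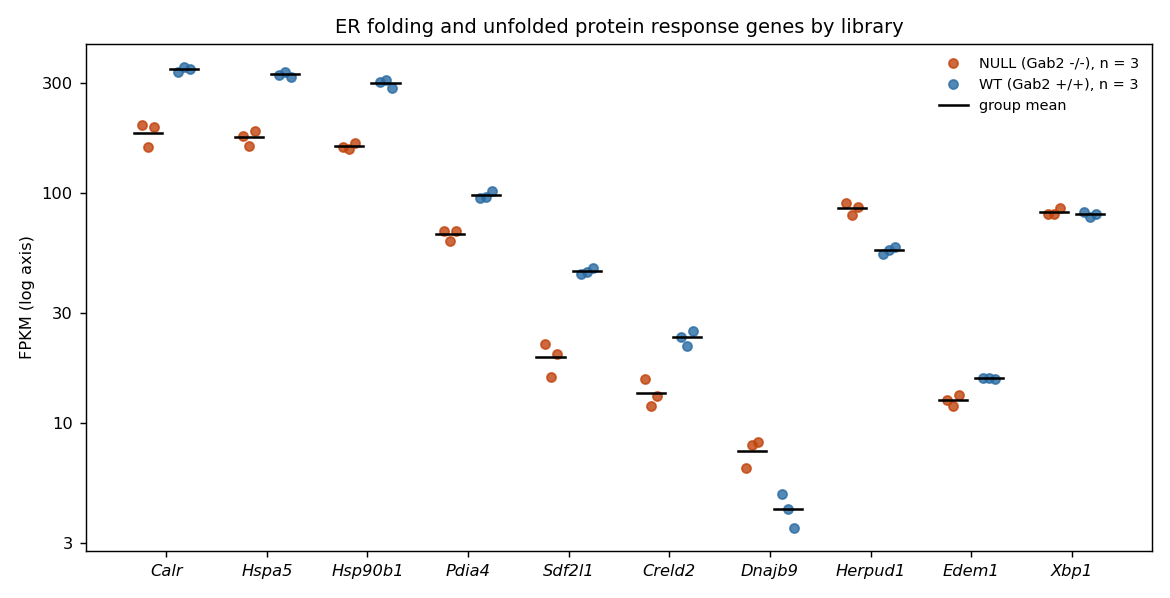
FPKM of each gene on a log axis, with 1 point per library, NULL left of WT, and black bars at the group means (n = 3 each). Calr, Hspa5 and Hsp90b1 averaged 182, 174 and 159 FPKM in NULL and 343, 326 and 299 FPKM in WT, Herpud1 and Dnajb9 were higher in all NULL libraries, and the Xbp1 points overlap.

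In both groups Calr, Hspa5 and Hsp90b1 were the most abundant members, in that order, and Sdf2l1, Creld2, Edem1 and Dnajb9 the least abundant, in that order. In NULL the means of neighbouring members Calr and Hspa5, Herpud1 and Xbp1, and Creld2 and Edem1 differed by less than 1 SD of the first, and in WT no neighbours were that close. The middle of the order turned round. Herpud1, Xbp1 and Pdia4 followed each other downwards in NULL with 85.7, 82.6 and 66.0 FPKM, and in WT the order was Pdia4, Xbp1 and Herpud1 with 97.3, 80.5 and 56.1 FPKM. The 10 genes together summed to between 743 and 839 FPKM in NULL and between 1280 and 1313 FPKM in WT.

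Two-sided exact permutation tests of the FPKM, over the 6 libraries, gave p = 0.1 for each member but Xbp1, the smallest p that 3 libraries against 3 allow, and p = 0.4 for Xbp1. The groups did not overlap for 9 of 10 members, 7 with all NULL libraries lower and 2 with all higher, beside 45.1% and 26.0% of all genes tested, or 71.0% in either direction.

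Ratios of members within a library do not depend on a scaling factor per library, and were computed after the members' values had been seen. The Hsp90b1 to Hspa5 ratio was 0.895, 0.967 and 0.886 in NULL, against 0.932, 0.922 and 0.896 in WT. The Calr to Hspa5 ratio was 1.12, 0.990 and 1.04 in NULL, against 1.03, 1.05 and 1.09 in WT. The mean ratios in NULL were 0.999 and 0.995 times those in WT, and the libraries overlapped (exact permutation p = 0.9 for each ratio). The Creld2 to Hspa5 ratio also overlapped, at 0.0775 ± 0.00935 in NULL and 0.0721 ± 0.00733 in WT (exact permutation p = 0.5, n = 3 each).

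The Herpud1 to Hspa5 ratio was 0.515, 0.502 and 0.465 in NULL, against 0.167, 0.167 and 0.182 in WT, a 2.87-fold higher mean in NULL. The Dnajb9 to Hspa5 ratio was 3.38-fold and the Xbp1 to Hspa5 ratio 1.93-fold higher in NULL. Edem1 and Pdia4 were 1.51-fold and 1.27-fold higher relative to Hspa5, and Sdf2l1 was lower relative to it, at 0.111 ± 0.0130 in NULL and 0.139 ± 0.00748 in WT. In all 6 of these ratios the groups did not overlap (exact permutation p = 0.1 each, n = 3 each). Relative to BiP, then, Dnajb9, Herpud1, Xbp1, Edem1 and Pdia4 were higher in NULL, in that order of size, and Sdf2l1 was lower. These ratios restate the members' own changes beside the fall of Hspa5 and are no separate evidence. Edem1 and Pdia4 themselves were lower in NULL on the deposited scale.

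**Figure D3:**
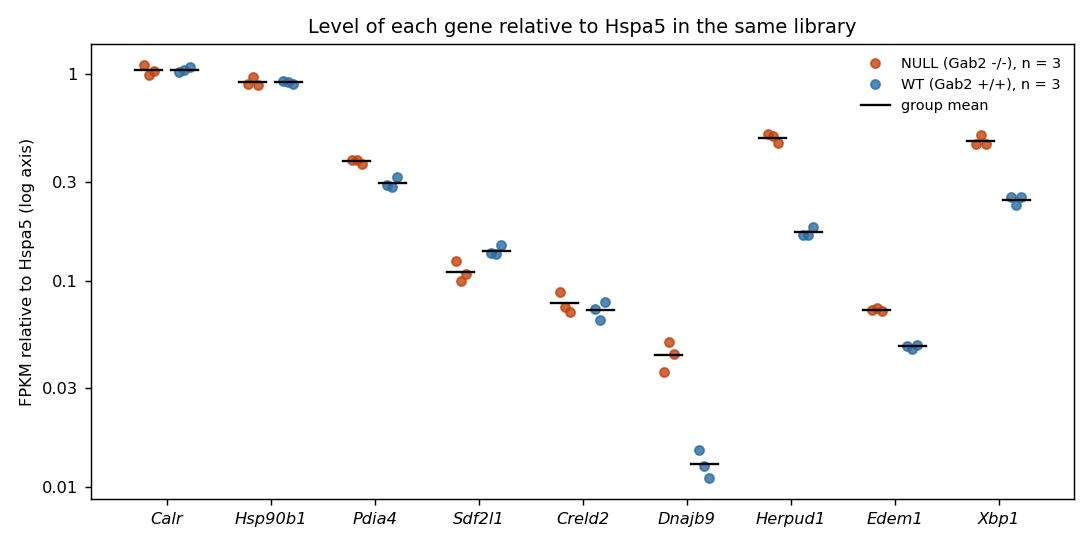
FPKM of each gene divided by the FPKM of Hspa5 in the same library, on a log axis, with 1 point per library, NULL left of WT, and bars at the group means (n = 3 each). The Calr, Hsp90b1 and Creld2 ratios overlap between the groups, Herpud1 averages 0.494 in NULL and 0.172 in WT, and Sdf2l1 has all NULL libraries below WT.

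The sensors upstream of these genes were tested from a list of 6 genes found in the table. Ern1, which encodes the sensor and Xbp1-splicing nuclease IRE1, read 11.9, 11.2 and 10.6 FPKM in NULL, against 1.07, 1.24 and 0.919 FPKM in WT. The NULL libraries were all near the same high level, for a log2 change of 2.56 (SE 0.083, limma adjusted p = 3.75e-06) that was called under all 4 rescalings. Eif2ak3, the sensor kinase PERK, rose to 19.45 ± 0.236 FPKM in NULL, against 10.98 ± 0.796 FPKM in WT (log2 change 0.77, limma adjusted p = 6.29e-05), and was also called under all 4. Atf6b, a paralog of Atf6, rose by 0.27 on the log2 scale, and Mbtps2, a protease that releases ATF6 from the membrane, fell by 0.45. Atf6 itself, named here after its values were seen, averaged 9.30 ± 0.371 FPKM in NULL and 10.5 ± 1.21 FPKM in WT (SD, n = 3 each) with overlapping groups. Its log2 change of -0.15 was not called (limma adjusted p = 0.163) and turned positive under 2 of the 4 rescalings. Atf6b and Mbtps2 lost the call under equal-sum rescaling (limma adjusted p = 0.0713 for Atf6b and 0.359 for Mbtps2), Mbtps2 also where small RNA genes were left out. Of the 6 genes 4 were higher, 1 lower and 1 not called, beside 23.3% higher and 42.0% lower of all genes tested. The number higher was 2 without NULL B, 2 without WT A and 2 under equal-sum rescaling.

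In the PERK and ATF4 branch 5 of 9 tested genes rose and 2 fell, beside 23.3% and 42.0% of all genes tested. The median log2 change was 0.40, and 1 gene rose where a mean of 5 FPKM was required, which leaves fewer genes. Ddit3, which encodes the stress factor CHOP, read 11.9, 11.1 and 11.4 FPKM in NULL, against 4.002, 5.45 and 5.61 FPKM in WT (log2 change 1.06, limma adjusted p = 0.000121). Atf3, a stress-induced transcription factor, rose to 2.36 ± 0.699 FPKM in NULL, against 0.758 ± 0.397 FPKM in WT, and Sesn2, a stress-induced regulator of mTORC1, to 2.27 ± 0.347 FPKM, against 1.299 ± 0.181 FPKM. Asns, the asparagine synthetase and a direct ATF4 target, went the other way and read 17.1, 13.4 and 17.6 FPKM in NULL, against 51.5, 50.6 and 65.8 FPKM in WT (log2 change -1.74, limma adjusted p = 4.06e-05). Ddit3, Atf3, Sesn2 and Asns were called in the same direction under all 4 rescalings. Atf4 itself, named here after its values were seen, also fell, to 106 ± 4.64 FPKM in NULL, against 141 ± 15.4 FPKM in WT. Its log2 change was -0.40 (limma adjusted p = 0.00571). Of the 4 rescalings Atf4 kept its call only with median-of-ratios factors, and its log2 change turned positive under 1.

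Among 33 other tested ER chaperones, cochaperones and foldases 19 fell and 4 rose on the deposited scale (median -0.30). Of all genes tested 42.0% fell and 23.3% rose. With median-of-ratios factors 12 were lower and 8 higher, with quantile normalization 10 and 6, with an equal sum 1 and 4, and with small RNA genes left out of that sum 8 and 10, where the median turned to 0.066. Canx, calnexin, the membrane-bound partner of calreticulin, read 139.5, 139.4 and 154 FPKM in NULL, against 271, 266 and 267 FPKM in WT (log2 change -0.89, limma adjusted p = 5.01e-05). Dnajb11, the partner of Sdf2l1, fell to 43.1 ± 1.54 FPKM in NULL, against 66.6 ± 2.37 FPKM in WT, and Manf, a stress-induced lumenal factor that binds BiP, to 28.8 ± 1.35 FPKM, against 49.7 ± 0.490 FPKM. Canx, Dnajb11 and Manf lost their calls under 1 of the 4, equal-sum rescaling (limma adjusted p = 0.0532, 0.356 and 0.156). The oxidase gene Ero1lb, which supplies disulfide bonds, rose to 36.9 ± 3.75 FPKM in NULL, against 15.8 ± 1.2 FPKM in WT (log2 change 1.18, limma adjusted p = 4.29e-05), and kept its call under all 4 rescalings. The other ER oxidase gene, Ero1l, named after its values were seen, went the other way, with 7.90 ± 0.808 FPKM in NULL and 16.3 ± 4.91 FPKM in WT (log2 change -0.93, limma adjusted p = 0.00267), and was called lower under all 4.

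Degradation genes other than the members were divided, with 6 higher and 5 lower of 24 on the deposited scale (median -0.038), and 3 lower without WT B. Of all genes tested 23.3% were higher and 42.0% lower. With median-of-ratios factors 10 degradation genes were higher and 2 lower, with quantile normalization also 10 and 2, with an equal sum 3 and 0, and with small RNA genes left out of it 16 and 0. Derl3, a channel component induced in secretory cells, read 2.73, 2.42 and 2.30 FPKM in NULL, against 1.19, 1.04 and 1.43 FPKM in WT (log2 change 0.65, limma adjusted p = 0.000566), and was called under all 4 rescalings. Vimp, which ties the ATPase VCP to the ER, rose by 0.27 on the log2 scale, a call lost under equal-sum rescaling (limma adjusted p = 0.103). Vcp itself had a log2 change of -0.56, called under 1 of the 4 rescalings, and its cofactor Nploc4 one of -0.37, called under 2.

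Genes that bring chains into the ER and attach sugars were mostly lower on the deposited scale. Of 10 oligosaccharyltransferase genes 9 fell and 0 rose, with a median of -0.50, where 42.0% of all genes tested fell and 23.3% rose. Under the rescalings 9, 5, 0 and 4 were lower, in the order median-of-ratios, quantile, equal sum and equal sum without small RNA genes, and 0 were higher in each. Ostc read 61.1, 55.5 and 64.3 FPKM in NULL, against 101, 104 and 109 FPKM in WT (log2 change -0.78, limma adjusted p = 9.23e-05), and the catalytic subunit Stt3b fell by 0.71. Of 23 translocon and signal peptidase genes 15 fell and 1 rose (median -0.30), and the smallest p was that of Ssr1 of the translocon-associated complex, with a log2 change of -0.68. In the same order of scalings 11, 2, 0 and 2 of them were lower and 4, 5, 1 and 8 higher. The balance of that list turned round with the scaling, as did that of all genes tested, 20.6% lower and 45.1% higher under the last. Of 19 ER to Golgi genes 9 fell and 2 rose on the deposited scale, and under the rescalings 7, 5, 0 and 2 were lower and 4, 5, 1 and 10 higher. Of all genes tested 32.7%, 33.1%, 10.1% and 20.6% were lower and 31.7%, 28.5%, 20.4% and 45.1% higher under the 4 rescalings. No list was tested against these shares. The cargo adaptor Sec24d of the COPII coat read 6.83, 6.87 and 6.65 FPKM in NULL, against 2.85, 2.70 and 2.77 FPKM in WT (log2 change 1.04, limma adjusted p = 1.83e-05), with every NULL library higher. The transport receptor Tmed2 fell to 91.4 ± 2.19 FPKM in NULL, against 152 ± 1.71 FPKM in WT. Ostc, Stt3b, Ssr1 and Tmed2 lost their calls under equal-sum rescaling, and Sec24d lost its call under none of the 4. Without NULL A, without NULL C or without WT B 1 of the ER to Golgi genes was higher.

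**Figure D4:**
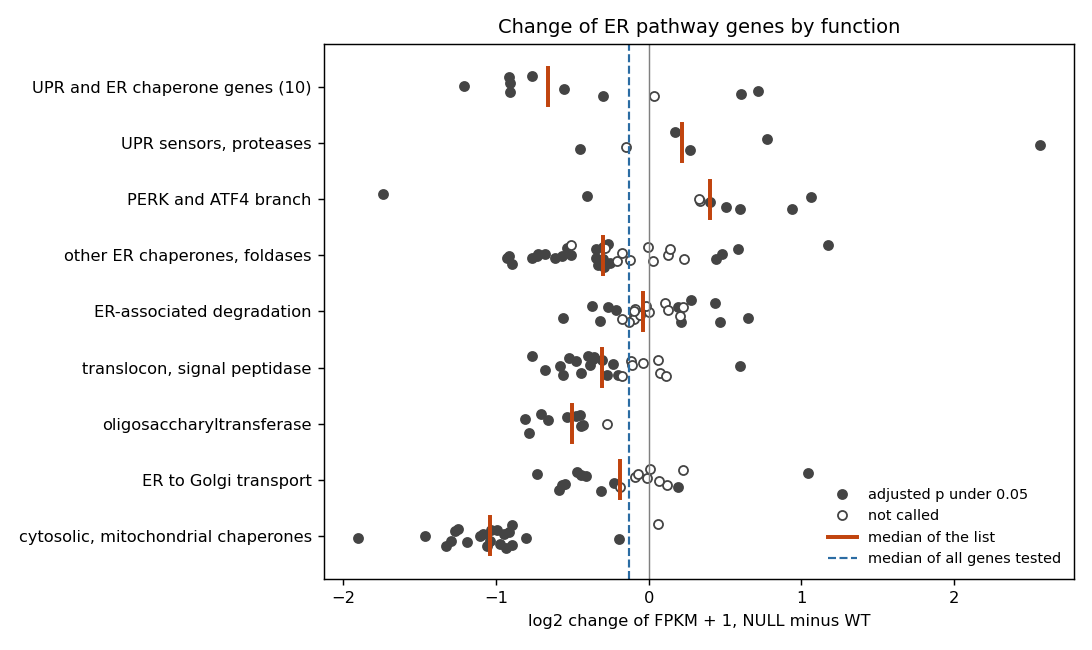
Log2 change of FPKM + 1 (NULL minus WT, deposited scale) of the tested genes, with 1 row per functional list, 1 point per gene, filled where the limma adjusted p was under 0.05, and red bars at the list medians. The dashed line is the median of all genes tested, -0.13. Ern1 lies farthest to the right at 2.56, and the median of the cytosolic and mitochondrial chaperones is -1.04.

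Chaperones outside the ER were lower as well. Of 22 tested cytosolic and mitochondrial folding chaperones 21 fell and 0 rose, with a median of -1.04, against -0.66 for the 10 members. Of all genes tested 42.0% fell and 23.3% rose. Looser filters add weakly expressed genes, and 2 chaperones were then higher at a mean of 0.1 FPKM and 3 with no filter. Between 17 and 20 of the 22 were lower under the 4 rescalings, and 1 was higher with median-of-ratios factors and 1 with an equal sum without small RNA genes. The mitochondrial chaperonin gene Hspe1 read 87.9, 86.2 and 91.9 FPKM in NULL, against 247, 247 and 243 FPKM in WT (log2 change -1.46, limma adjusted p = 9.29e-06), and the mitochondrial HSP70 gene Hspa9 fell by 1.33. Whether the fall differed between ER and other chaperones was not tested, and these counts describe the lists only.

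Beyond the members, exact ERSE matches could be sought in the promoters of 7408 tested genes with a RefSeq window, of which 14 hold one. Of these 14 genes 9 were lower and 3 higher, and of the 7394 without a match 42.3% were lower and 23.5% higher. The 9 include the members Hspa5, Hsp90b1, Calr and Creld2, and also Canx, the disulfide isomerase gene Pdia6, the cochaperone gene Dnajc3, Hnrnpa3 and Adcy3. Pdia6 averaged 68.8 FPKM in NULL and 111 FPKM in WT, and Dnajc3 21.9 FPKM in NULL and 26.95 FPKM in WT, and the call of Dnajc3 was lost under all 4 rescalings and that of Pdia6 under equal-sum rescaling (limma adjusted p = 0.258). The 3 that were higher are Derl3, Xlr3b and Syvn1. Syvn1, the ubiquitin ligase HRD1 of ER-associated degradation, averaged 12.9 FPKM in NULL and 9.003 FPKM in WT (log2 change 0.47, limma adjusted p = 0.00669), and kept its call under all 4 rescalings. Leaving out the members, 5 were lower and 3 higher of 10, with a median of -0.12, beside -0.13 for genes without a match. Of 7 tested genes with ERSE-II, Herpud1 alone was higher, and Dnajb11 and Rcl1 were lower. These genes were named for their promoter letters, after their values had been computed.

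How libraries are brought to a common scale decides part of the members' picture. Median-of-ratios factors were 0.928 to 0.960 in NULL and 1.04 to 1.07 in WT, and the median log2 change of all genes was -0.13 on the deposited scale, 0.0098 with those factors, -0.030 with quantile normalization, 0.11 with an equal sum and 0.20 with an equal sum without small RNA genes. With median-of-ratios factors 6 members were called lower and 3 higher, where 32.7% and 31.7% of all genes were (64.4% in either direction). With quantile normalization 5 members were lower and 3 higher, beside 33.1% and 28.5% of all genes (61.5%). With an equal sum 4 members were lower and 2 higher, beside 10.1% and 20.4% (30.5%), and without small RNA genes 5 were lower and 3 higher, beside 20.6% and 45.1% (65.8%). Relative to those medians, in that order, Hspa5 stood at -0.78, -0.76, -0.35, -0.74 and -0.73, Hsp90b1 at -0.78, -0.76, -0.37, -0.74 and -0.73, and Calr at -0.79, -0.77, -0.38, -0.75 and -0.74. Herpud1 stood at 0.73, 0.75, 1.08, 0.77 and 0.78 in the same order. Quantile normalization, which equalises the whole distribution, thus moved the abundant members upwards more than the other scalings did. Hspa5, Hsp90b1, Calr and Sdf2l1 were called lower, and Herpud1 and Dnajb9 higher, under each of the 5 scalings. With an equal sum Hspa5, Hsp90b1 and Calr were only just under the threshold (limma adjusted p = 0.0422, 0.0434 and 0.0378).

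**Figure D5:**
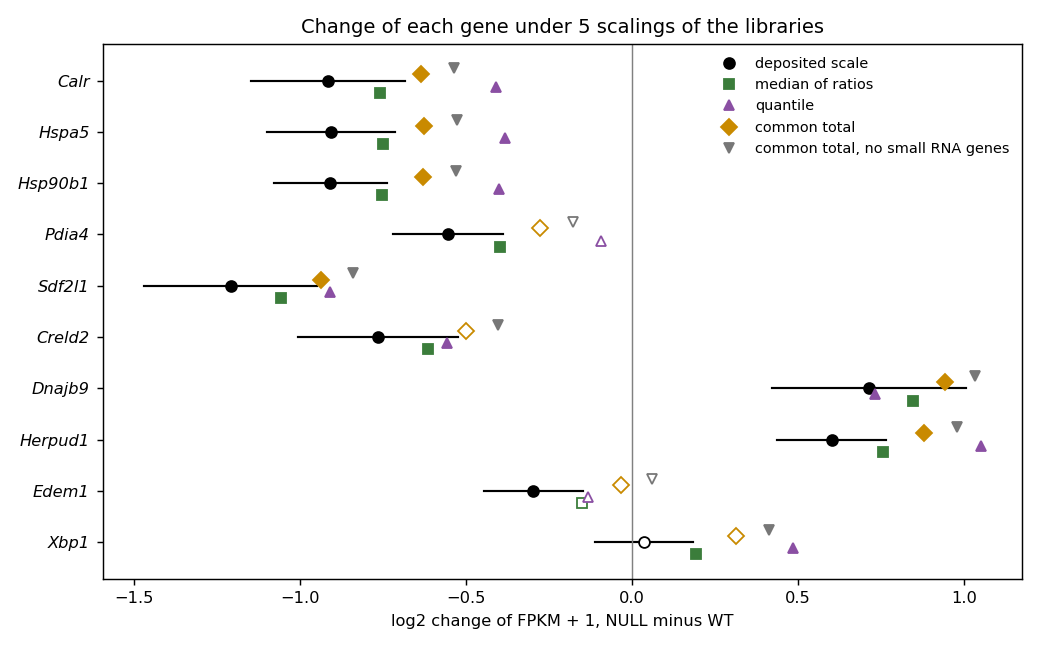
Log2 change of FPKM + 1 (NULL minus WT) of each gene on the deposited scale (black, with its 95% interval) and under 4 rescalings, filled where the limma adjusted p was under 0.05. Calr, Hspa5, Hsp90b1 and Sdf2l1 stay left of 0 and Dnajb9 and Herpud1 right of it with every symbol filled, and Edem1 runs from -0.30 to 0.060.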

How the data were processed

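Per the labels' protocols, poly(A) RNA went into a stranded kit and both ends of the fragments were read. The values are FPKM as deposited by the authors. The submitters' processing notes list Bowtie and Cufflinks and the builds mm10 and GRCm38, without versions or roles. No annotation, filter, strand setting or scaling is named there (not given in the sources used here). The series table, used here, differed from the library tables in 0 values. Of 23848 rows, 489 repeats of a symbol were left out, keeping the row with the highest mean. A count model would not suit FPKM.

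Limma 3.58.1 (R 4.3.3) was fitted to log2(FPKM + 1) of the 9916 genes whose mean reached 1 FPKM, with moderation along a mean-variance trend and no covariate. Tests were two-sided, with Benjamini-Hochberg adjustment over all genes and a threshold of 0.05. The log2(FPKM + 1) scale understates changes of weakly expressed genes. The fit was run on simulated data in which a small share of genes was shifted, equally up and down. In the data themselves 65.3% of genes tested were called, 42.0% lower and 23.3% higher. The simulation does not cover that case. Depth was estimated from the most frequent value of 1 / (FPKM × (length - 150 bases)) among coding genes with 1 transcript, and gives no counting interval. Positions are from GENCODE vM21, promoters from RefSeq (all 10 members matched).

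The members and gene lists were chosen with earlier results of these data known. Named were the members, Gab2, up to 4 called genes per list with the smallest p (or the gene with the smallest p where none was called); genes named for an ERSE or ERSE-II match were chosen after values were computed. The result of 1 listed marker gene is not reported here. Of the listed genes Rtcb, Ly6g, Ahsp and Trac were not found by symbol. Alternatives were other pseudocounts, filters, scalings, variance models, a block on the replicate letter, all rows and leaving out each library. Rescaling without small RNA genes and the ratios between members were added after seeing the data.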

Additional observations from a re-analysis of the deposited data

How the results depend on the processing

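Hspa5, Hsp90b1, Calr, Sdf2l1, Herpud1 and Dnajb9 kept direction and call under all 20 alternatives, with log2 changes of -0.96 to -0.38, -0.94 to -0.40, -0.97 to -0.41, -1.30 to -0.84, 0.56 to 1.05 and 0.44 to 1.03. Leaving out a library changed no member's call, with 7 members lower and 2 higher each time. After median-of-ratios rescaling Xbp1 was called (log2 change 0.19) and Edem1 was not (-0.15), and 36 other pathway genes were higher, against 22 on the deposited scale. After quantile normalization Xbp1 was called (0.49), Edem1 (-0.13) and Pdia4 (-0.093) were not, and 35 other pathway genes were higher and 26 lower, against 22 and 60. Rescaling to a common total left 4 members lower, without Creld2 (-0.50), Edem1 (-0.034) and Pdia4 (-0.28), 2 other pathway genes lower and 1003 genes of the table lower, against 4168. The same without small RNA genes, added after seeing the data, gave Xbp1 0.41, Edem1 0.060 (the sign turned, no call) and Pdia4 -0.18 (no call), 55 other pathway genes higher and 17 lower, and 4473 genes of the table higher and 2047 lower, against 2311 and 4168. A minimum mean of 5 FPKM left 1364 genes higher in a table of fewer genes tested. For the other shifts the cause was not tested.

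Deviations of same-lettered libraries from their group means correlated at 0.0735 (A), 0.355 (B) and 0.133 (C). Every library correlated best with its own letter, at most a weak hint from the data only. For NULL A the correlation with WT C was close to that, at 0.0451. Such a match can also arise without pairing where each group has 3 libraries, and pairing was not tested. With a replicate block 7 members were lower and 2 higher, and 3794 genes of the table were lower and 2050 higher. Under it 2 of the sensor genes were higher, against 4 without it, 3 degradation genes lower, against 5, and 1 ER to Golgi gene higher, against 2. Depth limits weak genes most, and no counting error can be given for FPKM.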
